A study of Mus musculus with 12 samples.

Results

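Several lysosomal enzyme genes of the mouse lie tail to tail with a gene on the opposite DNA strand, so that the last exons of both genes cover the same stretch of the chromosome. The 10 genes described here are 5 such enzymes, cathepsin B (Ctsb), acid phosphatase 2 (Acp2), cathepsin A (Ctsa), deoxyribonuclease II alpha (Dnase2a) and sulfamidase (Sgsh), and their opposite-strand neighbours Fdft1, Ddb2, Pltp, Mast1 and Card14, in that order. The members were chosen by their measured counts in these libraries together with their position, so the levels of the members and the balance of counts within a pair are a description and are not tested. They are 10 of 24552 gene symbols in the count table, and 9 of the 10 were among the 2356 symbols with enough counts to be tested, Dnase2a being the exception.

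Expression was measured by sequencing of polyadenylated RNA in macrophages cultured from mouse bone marrow for 6 days with the growth factor M-CSF at 10 ng/ml. Vehicle (DMSO) or ISRIB at 50 nM was given 1 h ahead of stimulation and kept on during it, and M1-like cells received LPS at 10 ng/ml with IFN-γ at 25 ng/ml for 16 h. ISRIB is a small molecule inhibitor of the integrated stress response, the pathway that slows protein synthesis when eIF2 is phosphorylated. Resting (M0) and M1-like cells, each with vehicle or with ISRIB, made 4 groups of 3 libraries that the labels call biological replicates. The labels do not spell out what the M0 cells received in place of LPS and IFN-γ, and they give no strain, sex or age and no statement on whether the replicates came from separate animals, so p-values measure the spread between these samples. In RNA from a whole culture, fewer cells of a type and less RNA per cell cannot be told apart.

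Lysosomes are the acidic compartments in which macrophages degrade what they engulf, and resident macrophages are rich in lysosomal hydrolases. Cathepsin B is a cysteine protease, cathepsin A is a serine carboxypeptidase that also protects beta-galactosidase and neuraminidase, Acp2 removes phosphate groups, Dnase2a degrades the DNA of engulfed cells, and Sgsh removes sulfate from heparan sulfate. The neighbours have unrelated roles: Fdft1 is squalene synthase, a committed step of cholesterol synthesis, Ddb2 recognises ultraviolet damage in DNA, Pltp transfers phospholipids between lipoproteins and is a target of liver X receptors, Mast1 is a microtubule-associated serine/threonine kinase known from neurons, and Card14 is a scaffold protein of NF-κB signalling known from skin.

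All 5 pairs are convergent in the mm10 gene models of GENCODE M21, meaning that the genes point towards each other and share their 3′ ends. Ctsb (chr14:63122462-63145923, plus strand) and Fdft1 (chr14:63145150-63179578, minus strand) share 774 exonic bases, none of them coding in either gene. Acp2 (chr2:91202885-91214098, plus strand) and Ddb2 (chr2:91211572-91236982, minus strand) share 652 exonic bases, of which 273 are coding in Ddb2. Ctsa (chr2:164832873-164841032, plus strand) and Pltp (chr2:164839518-164857711, minus strand) share 495 exonic bases, of which 304 are coding in Pltp. In each of these pairs the enzyme enters the shared stretch only with an untranslated part of its last exon. Dnase2a (chr8:84908560-84922915, plus strand) and Mast1 (chr8:84911903-84937359, minus strand) share 1616 exonic bases, of which 1589 are coding in Mast1. Sgsh (chr11:119343425-119355536, minus strand) and Card14 (chr11:119307768-119345375, plus strand) share 955 exonic bases, of which 318 are coding in Card14. No coding base of any of the 5 enzymes lies in a shared stretch, and the shared bases are 10.5% of the exonic bases of Ctsa, the smallest share among the members, and 25.0% of those of Mast1. Of the 1336 protein-coding pairs in the table whose exons overlap on opposite strands, 788 (59.0%) are convergent.

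**Figure D1:**
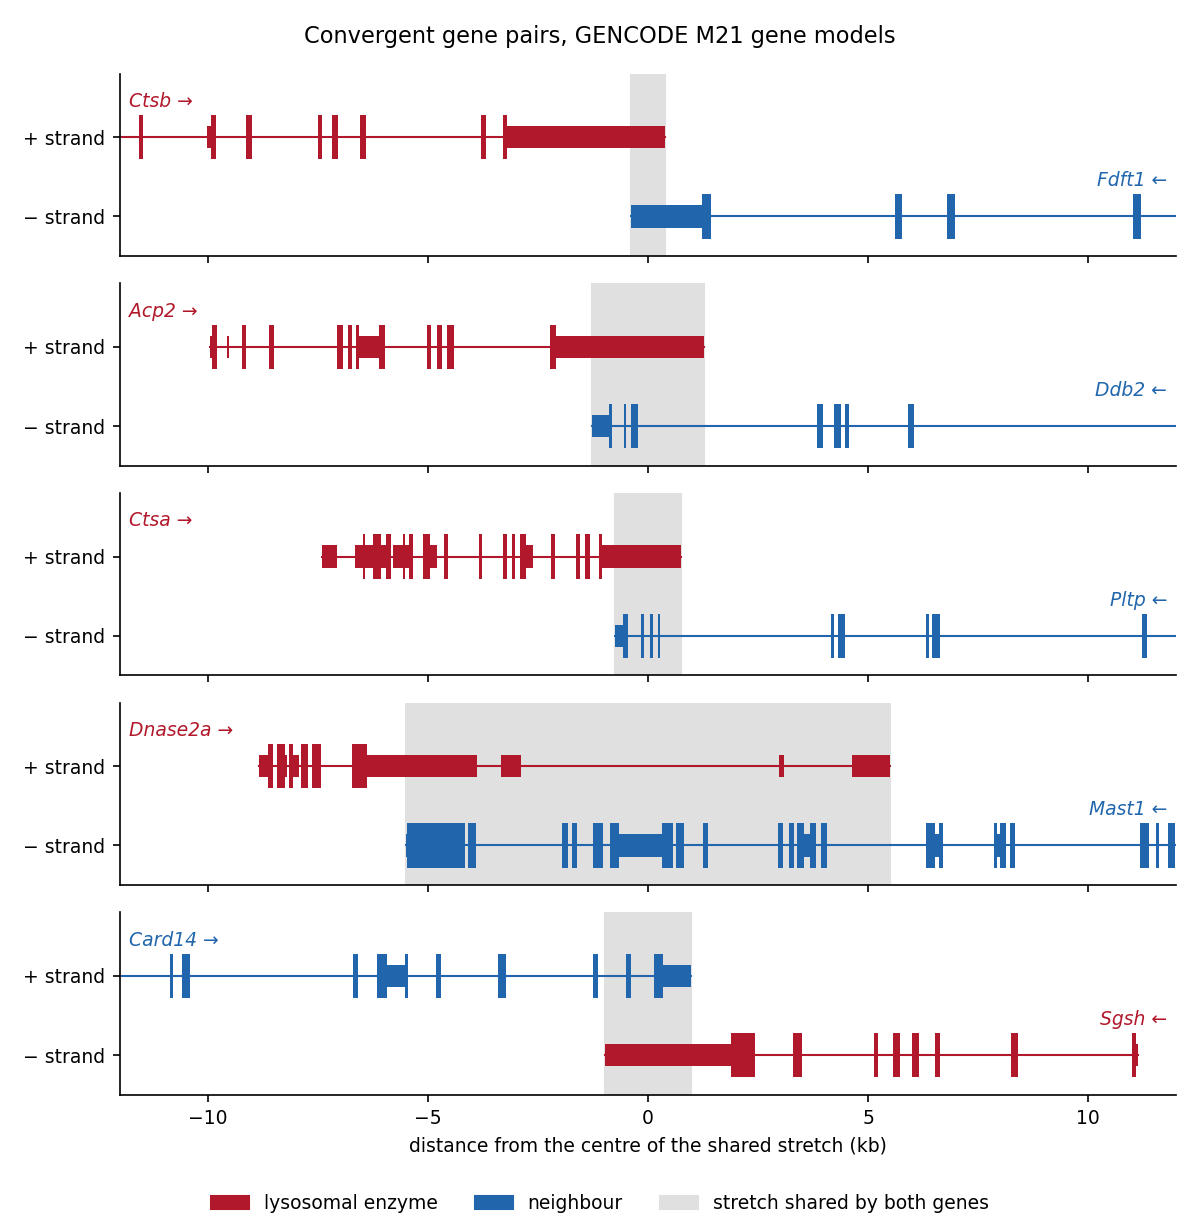
Gene models of the 5 pairs, drawn to scale around the centre of the stretch that both genes span (x axis, distance in kb, clipped at 12 kb on either side, so that the far ends of Ctsb, Fdft1, Ddb2, Pltp, Mast1 and Card14 are not shown). Tall boxes are coding exons, low boxes are untranslated exons and lines are introns; the grey band covers the shared stretch, into which every enzyme reaches with untranslated exons only.

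The counts behind these values need 2 facts of the whole table. Total counts were 439976 to 514037 per library, and a floor of 3 counts was 0.000584% to 0.000682% of a library, a limit that covers counting error only. The 5760 symbols with an exon overlapping an exon of an opposite-strand gene were 24.0% of the 23986 symbols found in the annotation and held 92.2% of their counts (between 91.2% and 93.0% in single libraries). The libraries were strand-specific, per the labels, and the strand setting of the counting is not given in the sources used here, so a value below is the count assigned to a symbol, and whether reads of a gene were counted at its opposite-strand partner was not tested. Macrophage markers were detected in every library, with no gene of 10 at 0 throughout. Their summed counts were 266 to 477 in M0 and 126 to 270 in M1 with vehicle, and 219 to 385 and 197 to 283 with ISRIB, so they were lower in M1 with vehicle as most members were, apart from a small overlap. Summed counts stayed at 0 to 4 for T cell, B cell, neutrophil, mast cell, stromal and erythroid lists. The list of M1 markers had 4 to 6 summed counts in vehicle M0 and 144 to 213 in vehicle M1, and 2 to 13 in ISRIB M0 and 228 to 324 in ISRIB M1, the last above all vehicle M1 libraries. These sums were not scaled to library size, and Cxcl9 (mean of 47.5 counts) and Cxcl10 (21.8) led them. Among single tested genes, ISRIB and vehicle M1 libraries were apart in CPM for 11.6%. The dendritic cell list moved with polarization, at 27 to 38 summed counts in vehicle M0 and 325 to 404 in vehicle M1. ISRIB M0 had 20 to 66 and ISRIB M1 had 407 to 434 summed counts of that list, chiefly from Xcr1 (mean of 202 counts over all libraries), while its defining members Flt3 and Zbtb46 were at 0 in all 12 libraries. The part of these marker lists in the results below was not tested.

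Ctsa and Sgsh carried the hexamer CACGTG near an annotated start. CACGTG is a palindrome, the same on both strands, and is the core of the E-box element that transcription factors of the MiT-TFE family, such as TFEB, bind at many lysosomal genes. RefSeq promoter sequences of GRCm38.p6, running from just upstream to just downstream of a start, were found for 6 members, namely Acp2, Ctsa, Dnase2a, Mast1, Pltp and Sgsh. The windows below are shown because they hold the matches, in capitals, and read 5′ to 3′ on the strand of the gene. The window of Ctsa lies at chr2:164833757-164833786 (plus strand), around the more downstream of its 2 RefSeq starts, and that of Sgsh lies at chr11:119355522-119355551 (minus strand).
Ctsa: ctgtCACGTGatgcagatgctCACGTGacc
Sgsh: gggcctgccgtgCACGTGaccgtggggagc
Both matches of Ctsa also fit the longer palindrome TCACGTGA, which contains CACGTG, and the match of Sgsh does not. CACGTG was present in 2187 of 27025 genes with a promoter entry (8.09%), in 11 of 43 other lysosomal genes (25.6%) and in 2 of these 6 members. TCACGTGA was present in 304 of 27025 genes (1.12%), in 3 of 43 other lysosomal genes (6.98%) and in 1 of the 6. A match of letters is a description of these windows and does not show that a factor was bound there.

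Counts within a pair were unequal, and in 4 of the 5 pairs nearly all of them were assigned to the neighbour. Over the 12 libraries, Fdft1 had a mean of 14237 counts against 110.0 for Ctsb, and Ddb2 had 9189.8 against 57.7 for Acp2. Card14 had 1371 counts against 13.2 for Sgsh, and Mast1 had 403 against 0.5 for Dnase2a. Ctsa was the only enzyme with more counts than its neighbour, at a mean of 6569 counts against 1855 for Pltp. As a share of the summed mean counts, the larger gene held 99.2% (Fdft1), 99.4% (Ddb2), 78.0% (Ctsa) and 99.9% (Mast1), and Card14 held a like share of its pair. Unequal pairs were common in the table: among the 480 other protein-coding pairs of this kind averaging 50 counts or more, the larger gene held a median of 95.4%, and at least 95% in 251 pairs (52.3%). Such pairs shared a median of 431.5 exonic bases, fewer than each of the 5 pairs described here.

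The order of the members was set by exon length as well as by counts, and it is therefore given per kilobase of exon. In vehicle M0, values in CPM (counts scaled to library size by TMM) per kilobase were 11424 for Fdft1, 4007 for Ddb2, 3991 for Ctsa, 2221 for Pltp, 1041 for Card14 and 219 for Mast1. Ctsb at 44.0, Acp2 at 35.8 and Sgsh at 10.9 CPM per kilobase followed, and Dnase2a was at 0. Ddb2 and Ctsa, neighbours in that order, did not differ beyond their spread, with an SD of 712 and 1063 CPM per kilobase, and neither did Ctsb and Acp2, with an SD of 4.52 and 6.93. In vehicle M1 Ddb2 led with 10812 CPM per kilobase, ahead of Fdft1 with 1918, Ctsa with 1087 and Pltp with 716. Card14 at 45.1 and Ctsb at 34.7 CPM per kilobase, with an SD of 14.8 and 14.6, did not differ beyond their spread there. Mast1 at 16.9 and Acp2 at 13.4 came next, and Sgsh and Dnase2a were at 0. Together the 10 symbols held 9.79% ± 0.442 (SD, n = 3) of all counts in vehicle M0 and 3.97% ± 0.122 in vehicle M1, and with ISRIB they held 10.2% ± 0.509 in M0 and 4.19% ± 0.152 in M1.

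**Figure D2:**
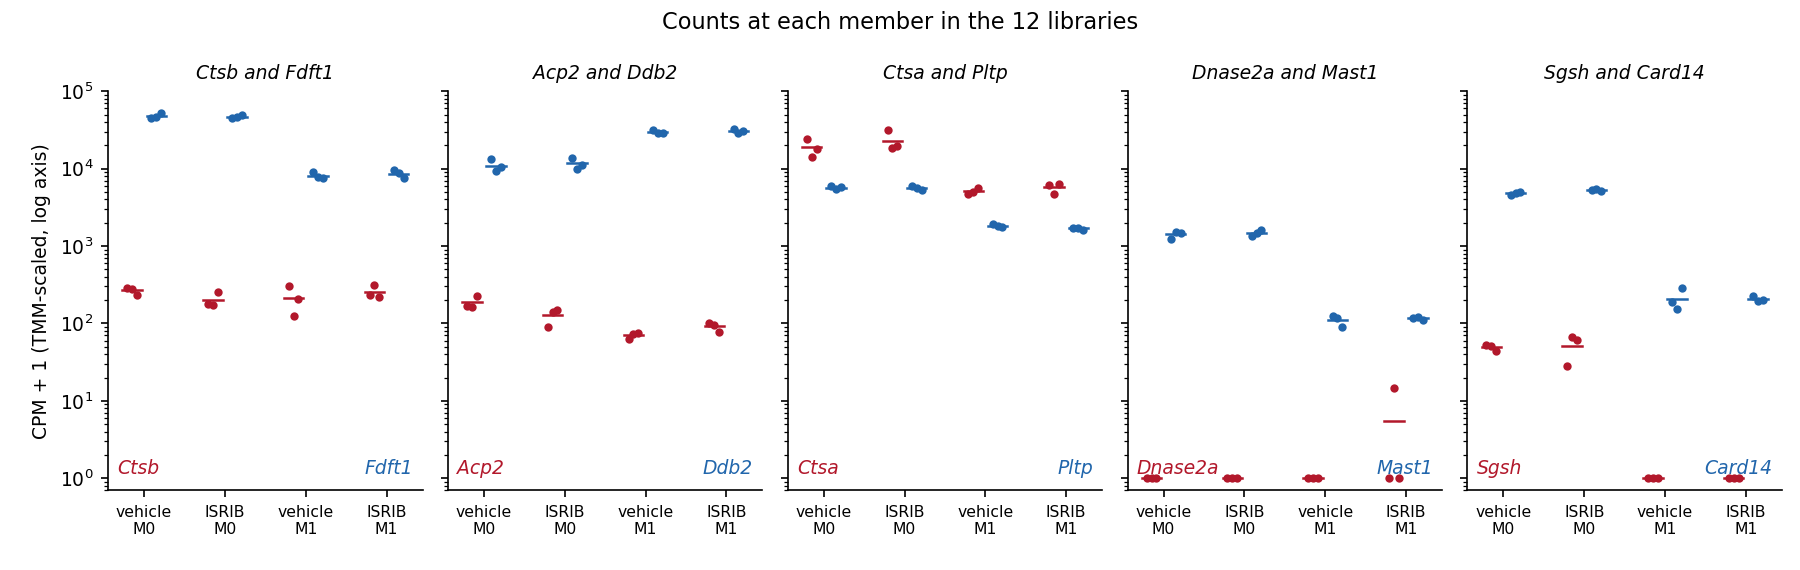
Level of each member in each library (y axis, TMM-scaled CPM plus 1, log axis) for vehicle and ISRIB in M0 and M1, one panel per pair, with the enzyme in red, the neighbour in blue, points for the 3 libraries and a bar for their mean. The neighbour lies above the enzyme in all panels but that of Ctsa and Pltp, and Ddb2 is the one member whose M1 points lie above its M0 points in both treatments.

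The first comparison asked how M1 polarization changed the members in cells given vehicle. Of the 9 members tested, 8 passed an adjusted p of 0.05 in edgeR (quasi-likelihood test, Benjamini-Hochberg adjusted over all 2356 genes), 7 lower and 1 higher in M1. Of all tested genes 44.8% passed, 20.5% lower and 24.3% higher in M1. All tested members but Sgsh averaged 50 counts or more, as did 828 other tested genes. With that minimum 530 genes passed, 7 of them members. The share that passed was thus larger among well-counted genes than the 44.8% over all tested genes. Among the enzymes, Acp2, Ctsa and Sgsh fell and Ctsb did not pass; among the neighbours, Fdft1, Pltp, Mast1 and Card14 fell and Ddb2 rose. Sgsh passed the filter on low counts only through the M0 groups, in which it is high, so it had to differ and adds nothing to the count of 8.

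Ctsa, the enzyme with the most counts, had 13030, 7932 and 8941 counts in the 3 vehicle M0 libraries and 1893, 1926 and 2363 in vehicle M1. All M1 values lay below all M0 values, and the first M0 library stood above the others. Its level was 18819 ± 5012 CPM (SD, n = 3) in vehicle M0 and 5124 ± 493 in vehicle M1, a fall of 3.67-fold (log2 fold change -1.88 ± 0.18 SE, edgeR adjusted p 1.93e-09). Ctsa ranked 4 to 5 among all symbols in the vehicle M0 libraries and 32 to 46 in vehicle M1. Pltp, the lipid transfer protein opposite Ctsa, had 3214, 3006 and 2831 counts in vehicle M0 and 763, 713 and 731 in vehicle M1. The groups of Pltp did not overlap, and the libraries within each group lay close together. Pltp fell 3.10-fold, from 5690.4 ± 291 to 1834 ± 76.8 CPM (log2 fold change -1.63 ± 0.10 SE, edgeR adjusted p 3.93e-13).

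A further gene covers the other end of Ctsa. Neurl2, an adaptor of a ubiquitin ligase, lies on the opposite strand and shares 324 exonic bases with the 5′ part of Ctsa. Neurl2 had 247, 230 and 219 counts in vehicle M0 and 76, 64 and 60 in vehicle M1, without overlap between the groups. It fell by 1.39 ± 0.18 on the log2 scale (edgeR adjusted p 6.56e-07), so that both opposite-strand neighbours of Ctsa and Ctsa itself were lower in M1. The genes at the head of 2 other enzymes had almost no counts, with at most 3 in a library for Nr1h3, which starts 51 bases from Acp2, and at most 4 for Slc26a11, which starts 21 bases from Sgsh.

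Acp2 had few counts, 90, 91 and 112 in vehicle M0 and 25, 28 and 31 in vehicle M1. No M1 library reached an M0 library. Its level fell 2.66-fold, from 186 ± 35.9 to 69.7 ± 6.27 CPM (log2 fold change -1.41 ± 0.29 SE, edgeR adjusted p 0.000296). Ddb2, the DNA damage recognition gene opposite Acp2, went the other way, with 7075, 5202 and 5166 counts in vehicle M0 and 12593, 11104 and 11926 in vehicle M1. Every M1 library of Ddb2 lay above every M0 library, and the first M0 library was again the highest of its group. Ddb2 rose 2.70-fold, from 10962 ± 1948 to 29581 ± 1694 CPM (log2 fold change 1.43 ± 0.12 SE, edgeR adjusted p 1.30e-10), and was ranked 6 among all symbols in each vehicle M1 library. The enzyme and its neighbour thus moved in opposite directions in this pair.

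Fdft1, the squalene synthase gene opposite Ctsb, had 24534, 26220 and 25905 counts in vehicle M0 and 3582, 3010 and 3170 in vehicle M1. It was the symbol with the most or second most counts in the vehicle M0 libraries and ranked 18 to 22 in vehicle M1. Its level fell 5.96-fold, from 48291 ± 3712 to 8109 ± 748 CPM (log2 fold change -2.57 ± 0.10 SE, edgeR adjusted p 4.30e-17). Ctsb had 155, 154 and 116 counts in vehicle M0 and 120, 48 and 86 in vehicle M1, and the groups overlapped. The second vehicle M1 library was the lowest of all 12. The log2 fold change of Ctsb was -0.34 ± 0.26 SE (edgeR adjusted p 0.302), with a 95% interval from -0.87 to 0.19, which holds small changes in either direction and leaves out a fall as large as that of any called member.

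Mast1 and Card14 showed the widest differences among the members with counts in both states. Card14, the NF-κB scaffold gene opposite Sgsh, had 2446, 2680 and 2491 counts in vehicle M0 and 75, 59 and 118 in vehicle M1. It fell 23.1-fold, from 4792 ± 258 to 208 ± 68.2 CPM (log2 fold change -4.52 ± 0.16 SE, edgeR adjusted p 9.76e-18). Mast1, the kinase gene opposite Dnase2a, had 660, 858 and 730 counts in vehicle M0 and 49, 45 and 37 in vehicle M1. Its level fell 12.9-fold, from 1413 ± 167 to 109 ± 17.8 CPM (log2 fold change -3.69 ± 0.17 SE, edgeR adjusted p 1.04e-15). For both genes the groups were far apart, the highest M1 count being under 10% of the lowest M0 count.

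Sgsh and Dnase2a were at the limit of detection. Sgsh had 28, 28 and 21 counts in vehicle M0 and 0 in each vehicle M1 library. Set against the floor of 3 counts per library, Sgsh was at least 6.44-fold lower in vehicle M1, a description, since the filter on low counts left no room for another outcome. Dnase2a had 0 counts in 11 of the 12 libraries and 6 in the second ISRIB M1 library. For Dnase2a no difference was detectable at this depth, and no fold is given.

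The second comparison asked whether polarization changed the members in the same way under ISRIB. With ISRIB, 7 of the 9 members tested passed in edgeR (Benjamini-Hochberg adjusted), 6 lower and 1 higher in M1, where 44.8% of all tested genes passed, 20.9% lower and 23.9% higher. With a minimum mean of 50 counts, which only Sgsh of the tested members missed, 523 genes passed, 6 of them members. That was again a larger share than the 44.8%. Fdft1, Ctsa, Pltp, Mast1, Card14 and Sgsh fell, Ddb2 rose, and Acp2 and Ctsb did not pass. Sgsh, again tested only through its M0 counts, adds nothing to the count of 7 either. Acp2 was the one member called with vehicle and not with ISRIB, and the test of that difference is given with the interaction below.

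Fdft1 had 21372, 25752 and 26357 counts in ISRIB M0 and 3808, 3887 and 3249 in ISRIB M1, and fell 5.44-fold, from 46888 ± 2457 to 8618 ± 960 CPM (log2 fold change -2.44 ± 0.10 SE). Ctsa had 15181, 10002 and 10312 counts in ISRIB M0, where the first library again stood above the others, and 2441, 2084 and 2723 in ISRIB M1. It fell 4.03-fold, from 23028 ± 7423 to 5719 ± 912 CPM (-2.01 ± 0.18). Pltp had 2896, 3102 and 2853 counts in ISRIB M0 and 692, 771 and 687 in ISRIB M1, a fall of 3.36-fold (-1.75 ± 0.10). All of these groups were apart, as they were with vehicle. Card14 had 2567, 3038 and 2711 counts in ISRIB M0 and 91, 86 and 85 in ISRIB M1, a fall of 25.7-fold from 5314 ± 226 to 207 ± 18.4 CPM (-4.69 ± 0.16). Mast1 had 645, 812 and 853 counts in ISRIB M0 and 47, 54 and 47 in ISRIB M1, a fall of 12.7-fold from 1472 ± 128 to 116 ± 5.68 CPM (-3.66 ± 0.16). For both genes the highest M1 count was again under 10% of the lowest M0 count. Ddb2 had 6664, 5501 and 6025 counts in ISRIB M0 and 13154, 12864 and 13003 in ISRIB M1, a rise of 2.62-fold from 11717 ± 1963 to 30737 ± 2017 CPM (1.39 ± 0.12). The edgeR adjusted p of these 6 genes lay between 4.31e-18 for Card14 and 5.48e-10 for Ctsa.

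Among the low enzymes, Sgsh had 13, 36 and 32 counts in ISRIB M0 and 0 in each ISRIB M1 library, at least 7.17-fold lower against the floor of 3 counts per library, which is likewise a description. Acp2 had 43, 77 and 80 counts in ISRIB M0 and 40, 42 and 33 in ISRIB M1. These groups of Acp2 overlapped, because the first ISRIB M0 library was low, and the log2 fold change was -0.49 ± 0.29 SE (edgeR adjusted p 0.175). Ctsb had 85, 94 and 135 counts in ISRIB M0 and 94, 141 and 92 in ISRIB M1, which also overlapped. Its log2 fold change was 0.35 ± 0.26 SE (edgeR adjusted p 0.278), opposite in sign to that with vehicle, and the 95% interval held 0 in both.

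**Figure D3:**
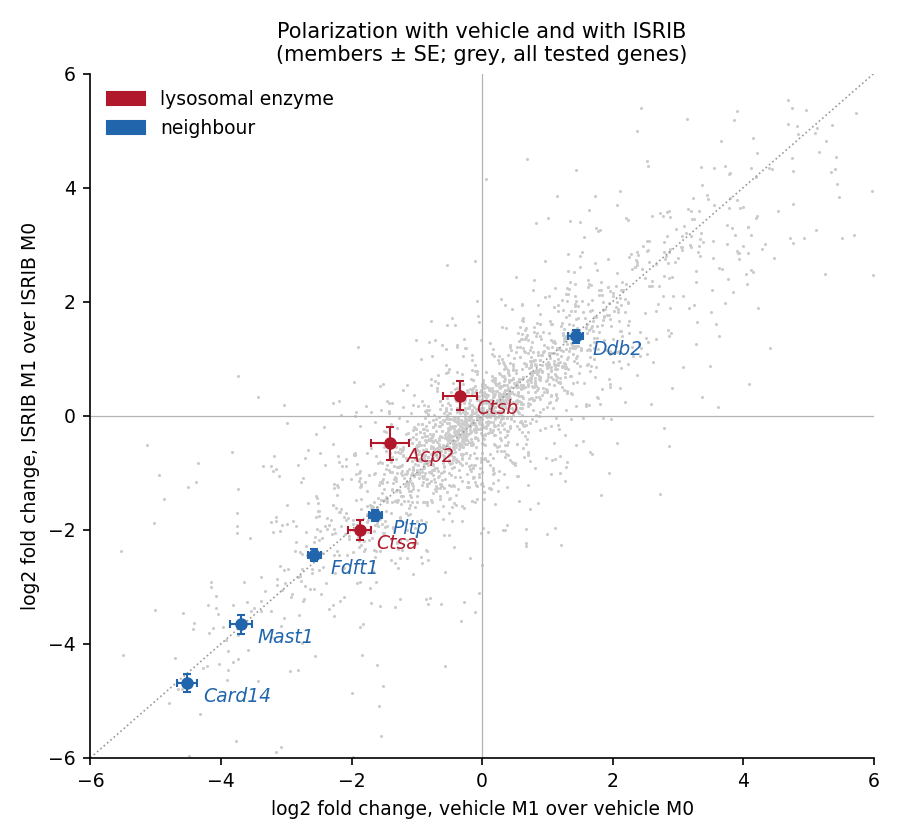
Log2 fold change from M0 to M1 with vehicle (x axis) and with ISRIB (y axis), red for enzymes and blue for neighbours with bars of 1 SE, grey for the tested genes that lie within the axes, and a dotted line of equal change. Sgsh, at 0 counts in M1, and Dnase2a, not tested, are left out; Card14, Mast1, Fdft1, Ctsa, Pltp and Ddb2 lie on or near the dotted line, and Acp2 and Ctsb lie farthest from it among the members.

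The share of a pair's counts at the enzyme moved with polarization where enzyme and neighbour changed by different amounts. Ctsb held 0.553% ± 0.0950 (SD, n = 3) of the counts of its pair in vehicle M0 and 2.48% ± 0.847 in vehicle M1, and with ISRIB 0.423% ± 0.0766 in M0 and 2.89% ± 0.558 in M1. In counts per library, Fdft1 had 158 to 223 counts for each count of Ctsb in vehicle M0 and 29.9 to 62.7 in vehicle M1. The counts of Fdft1 differed more between the states than those of Ctsb. Acp2 went the other way, from 1.70% ± 0.433 to 0.236% ± 0.0333 of its pair with vehicle and from 1.11% ± 0.408 to 0.294% ± 0.0370 with ISRIB. In that pair Acp2 was lower and Ddb2 higher in M1, and the groups of shares did not overlap in either treatment. Ctsa held 76.2% ± 3.86 of its pair in M0 and 73.5% ± 2.60 in M1 with vehicle, and 79.5% ± 3.97 and 76.9% ± 3.54 with ISRIB. The M0 and M1 shares of Ctsa overlapped in both treatments, while the counts of Ctsa and of Pltp fell. Sgsh held 1.00% ± 0.151 in vehicle M0 and 0.947% ± 0.384 in ISRIB M0 and was at 0 in M1. With 59 to 118 counts of Card14 left in each M1 library, the floor of 3 counts of Sgsh would be a larger share than that in M0, so a change of this share was not detectable at this depth. Dnase2a was above 0 in a single library, in which its 6 counts were 10.0% of the pair.

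**Figure D4:**
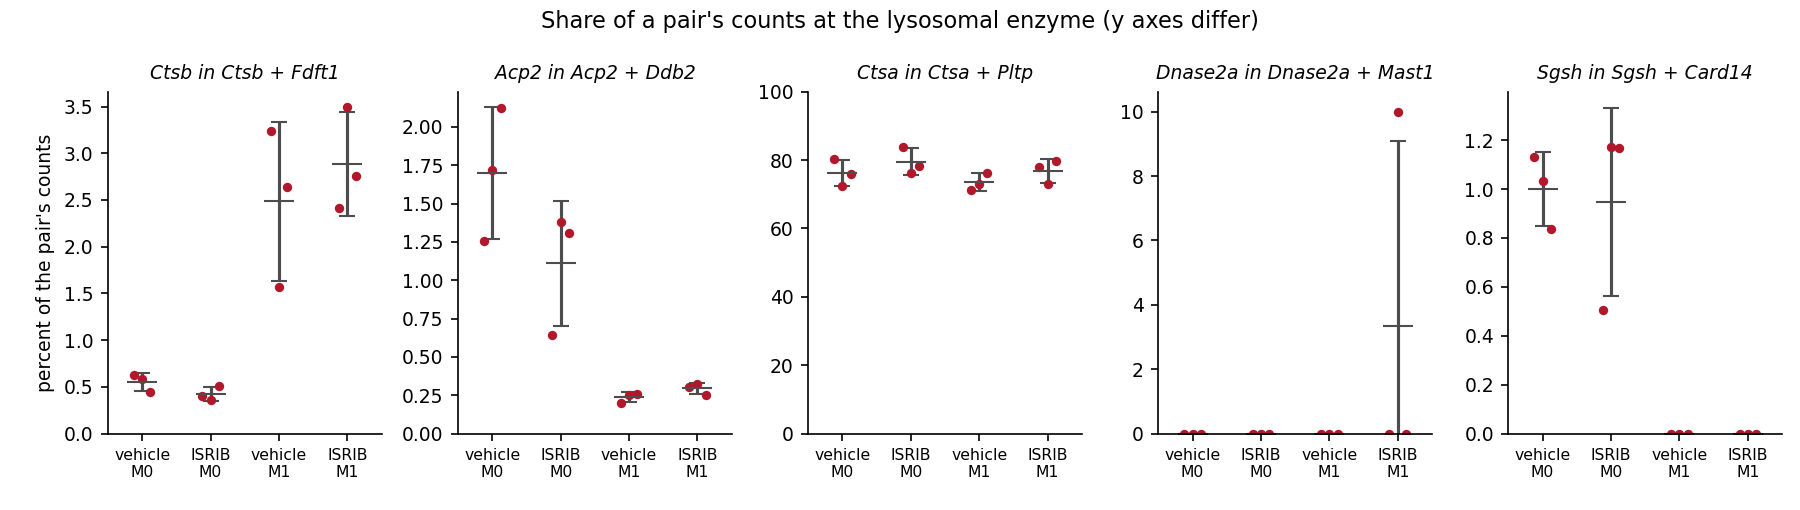
Percent of a pair's counts assigned to the enzyme in each library (y axes start at 0 and differ between panels), by group, with points for the 3 libraries and bars for the mean and 1 SD. Ctsb takes a larger share in M1 than in M0, Acp2 takes a smaller one, Sgsh is at 0 in M1, and Ctsa holds the larger part of its pair, at 71.3% or more in all 12 libraries.

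The third comparison asked how the members differed between ISRIB and vehicle within each state. In M1, none of the 9 members tested passed in edgeR (Benjamini-Hochberg adjusted), where 0.0% of the 2356 genes passed. Sgsh, with 0 counts in every M1 library, could not pass and is no test here. At an unadjusted p of 0.05, edgeR passed 134 genes and none of the members, and DESeq2 and limma also called 0 genes after adjustment. The ISRIB and vehicle libraries did not overlap in CPM for Acp2 (ISRIB higher) and Pltp (ISRIB lower), as for 11.6% of all tested genes. Fdft1 differed by 0.09 on the log2 scale (95% interval -0.11 to 0.28), Ddb2 by 0.06 (-0.18 to 0.29) and Pltp by -0.12 (-0.32 to 0.09). For these 3 genes no interval reached below -0.32 or above 0.29. Ctsa differed by 0.16 (-0.20 to 0.51), Mast1 by 0.09 (-0.30 to 0.49) and Card14 by -0.01 (-0.36 to 0.33), intervals that are wider. The intervals of Acp2, at 0.37 (-0.25 to 1.00), and Ctsb, at 0.28 (-0.26 to 0.82), were the widest, and at their depth log2 changes of up to those bounds are not left out.

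In M0, none of the members passed either in edgeR (Benjamini-Hochberg adjusted), where again 0.0% of genes passed. At an unadjusted p of 0.05, edgeR passed 143 genes and none of the members, and DESeq2 and limma called 0 genes. Fdft1 differed by -0.04 on the log2 scale (95% interval -0.23 to 0.15), Pltp by -0.01 (-0.20 to 0.19) and Ddb2 by 0.10 (-0.14 to 0.33). These strongly counted neighbours were narrowly bounded. Ctsa differed by 0.29 (-0.06 to 0.64), Card14 by 0.15 (-0.11 to 0.41), Mast1 by 0.06 (-0.22 to 0.34) and Ctsb by -0.41 (-0.93 to 0.12). Acp2 was lower with ISRIB in M0, at 126 ± 32.4 CPM against 186 ± 35.9, by -0.55 on the log2 scale (95% interval -1.11 to 0.01, unadjusted p 0.0557 and adjusted p 0.822 in edgeR). The ISRIB and vehicle libraries of M0 did not overlap in CPM for Acp2 (ISRIB lower) and Card14 (ISRIB higher), as for 11.3% of all tested genes. Sgsh differed by 0.08 (-1.16 to 1.32), an interval too wide to place its M0 level under ISRIB. All these intervals come from the fit without a replicate block. Compared by replicate number, M0 CPM was always higher with ISRIB for Ddb2, Ctsa and Card14, and always lower for Fdft1 and Acp2. In M1 it was always higher for Ddb2 and Acp2 and always lower for Pltp. The other tested members were mixed or without counts. The share of all genes with such an order was not computed.

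The interaction asks whether the difference between ISRIB and vehicle was itself different in M1 and M0, and 0.0% of genes and none of the members passed it in edgeR (Benjamini-Hochberg adjusted). At an unadjusted p of 0.05, edgeR passed 167 genes, one of which was Acp2, and DESeq2 and limma called 0 genes after adjustment. The interaction of Acp2 was 0.92 ± 0.41 SE on the log2 scale (unadjusted p 0.0331, edgeR adjusted p 0.660): its CPM was lower with ISRIB in M0 and higher in M1, at 90.5 ± 11.8 against 69.7 ± 6.27. The interaction of Ctsb was 0.69 ± 0.37 SE (edgeR adjusted p 0.713). For the other tested members with counts in M1 it ranged from -0.16 (Card14) to 0.13 (Fdft1). Sgsh, without counts in M1, could not show an interaction.

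The genes whose log2 CPM followed a member most closely over the 12 libraries were looked up for each member with a mean of 50 counts or more. For Fdft1 and for Card14 they were the same 2 of the 828 other genes averaging 50 counts or more, Nt5dc2 (Pearson r of 0.995 with Fdft1 and 0.996 with Card14) and Hmgxb3 (0.994 with each). Nt5dc2 overlaps Stab1, a scavenger receptor of resident macrophages, and Hmgxb3 overlaps Csf1r, the receptor of M-CSF, both on the opposite strand. Ddb2 was closest to Slfn5os (0.996) and Ccdc167 (0.995), which overlap Slfn5 and Cmtr1. Ctsa was closest to Tctn1 (0.986) and Cenpo (0.980), Pltp to Gm10677 (0.994) and Mrps25 (0.993), and Mast1 to Mrps25 (0.996) and Atg7 (0.995). The enzymes with few counts had looser matches, Acp2 with Slc16a6 (0.924) and Rell2 (0.902) and Ctsb with Tesk2 (0.797) and Mfsd4a (0.676). Of the genes named in these comparisons Gm10677 and Atg7 had no opposite-strand exon overlap and the others had one. Their partners with the largest overlap were Hvcn1 for Tctn1, Adcy3 for Cenpo and Nr2c2 for Mrps25. Those of the looser matches were Amz2 for Slc16a6, Fchsd1 for Rell2, Toe1 for Tesk2 and Gm26892 for Mfsd4a. The share with an overlap among the 828 genes was not computed, and symbols with one held 92.2% of the counts at annotated symbols. The values of r describe 12 libraries that fall into 2 states, and no p is attached to them.

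Other lysosomal genes were set beside the 5 enzymes from a list of 52 hydrolases and membrane proteins of the lysosome. The 40 without an opposite-strand exon overlap had a median of 2.38 mean counts and at most 129.0 (Psap, the saposin precursor). The 12 with such an overlap had a median of 18.5 and at most 707 (Ppt1, a thioesterase), so that Ctsa, at 6569, was above all of them. Of the 52, 22 were tested. In edgeR (Benjamini-Hochberg adjusted) 7 rose and 4 fell in M1 with vehicle (median log2 fold change 0.38, against 0.01 over all tested genes), and 6 rose and 2 fell with ISRIB (median 0.45, against -0.01). Over all tested genes 24.3% rose and 20.5% fell with vehicle, and 23.9% and 20.9% with ISRIB. One of the genes that fell with vehicle, the glucuronidase gene Gusb, had 0 to 1 counts in vehicle M1 and 6 to 11 in vehicle M0. Gusb passed the filter on low counts only through M0, with 12 to 29 counts in ISRIB M0 and 2 to 16 in ISRIB M1. Ctsc and Lamp2, called higher in both treatments, passed the filter on low counts only through M1. Ctsc had 0 to 8 counts in M0 libraries and 34 to 69 in M1, and Lamp2 had 0 to 9 and 12 to 39. Arsa, called lower with vehicle, passed only through M0, with 16 to 26 counts in vehicle M0 and 0 to 8 in vehicle M1. The calls of Gusb, Ctsc, Lamp2 and Arsa are a description and add nothing to these counts. The medians above include these genes. The aspartic protease cathepsin D (Ctsd) fell by 1.32 ± 0.41 on the log2 scale with vehicle (edgeR adjusted p 0.00987). With vehicle Ppt1 rose by 0.98 ± 0.16 and the cholesterol exporters Npc1 by 1.18 ± 0.22 and Npc2 by 1.77 ± 0.38, with an edgeR adjusted p of at most 0.000419. Of Ctsd, Ppt1, Npc1 and Npc2, Ppt1 overlaps Cap1 and Npc1 overlaps Rmc1 on the opposite strand.

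Of the listed lysosomal genes, 7 had an opposite-strand partner in the table, in 8 pairs. The partner had more counts in 4 pairs and the lysosomal gene in the other 4. Scpep1, a serine carboxypeptidase related to Ctsa, had a mean of 7.17 counts against 2586 at its antisense symbol Scpep1os. Idua, the enzyme that removes iduronic acid from heparan and dermatan sulfate, had 26.5 against 268 at Slc26a1 and 161 at Dgkq. In these pairs, as in those of Ctsb and Acp2, the partner held most of the counts. Ppt1 resembled Ctsa in having more counts than its partner, 707 against 109.0 at Cap1. Of the 5 partners tested, 2 fell and 2 rose in M1 with vehicle. Slc26a1 fell by 1.10 on the log2 scale (edgeR adjusted p 1.93e-05), and Nelfcd, opposite the cathepsin gene Ctsz, rose by 1.10 (edgeR adjusted p 2.18e-05).

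**Figure D5:**
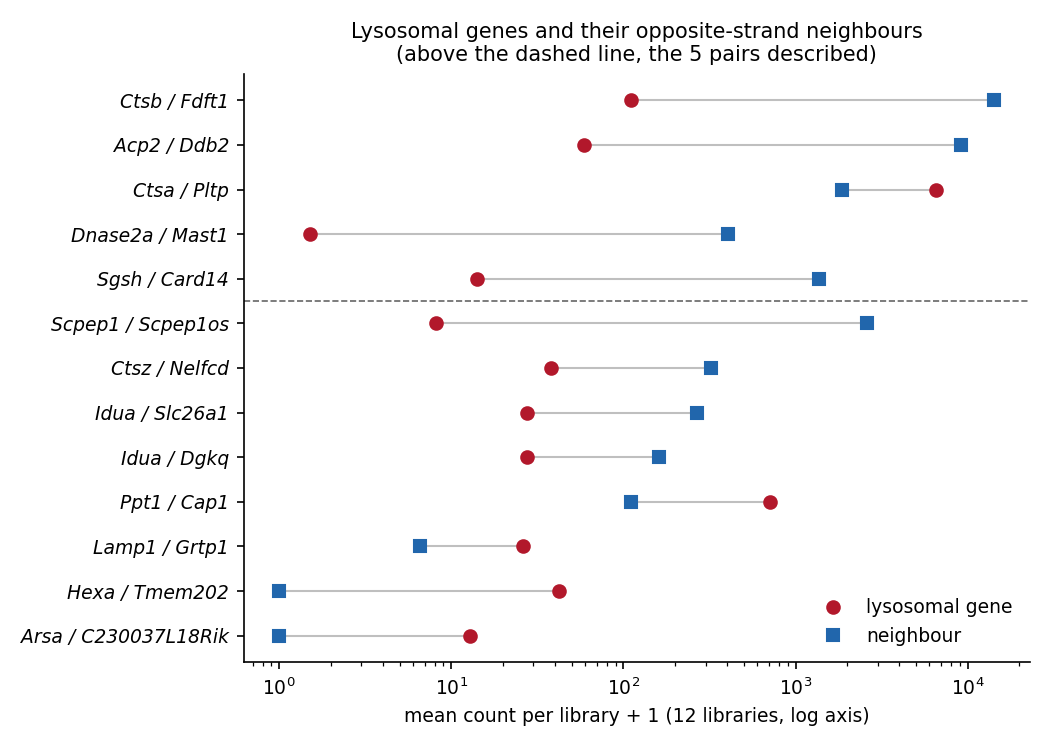
Mean count per library plus 1 over the 12 libraries (x axis, log axis) of lysosomal genes (red circles) and their opposite-strand partners (blue squares), joined by a line. The 5 pairs described are above the dashed line, and 8 further pairs of listed lysosomal genes are below it; partners lie to the right in 4 of the 5 and in 4 of the 8.

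Pathways of the members were mostly too thinly counted to be followed beyond the member itself. In the cholesterol synthesis pathway of Fdft1, 2 of 22 listed genes were tested and 8 were at 0 in all libraries. Squalene epoxidase (Sqle), which acts on the product of Fdft1, fell by 1.10 ± 0.22 on the log2 scale with vehicle (edgeR adjusted p 0.000172) and by 1.72 ± 0.22 with ISRIB (5.07e-07). Of 22 genes of nucleotide excision repair, the pathway of Ddb2, 1 was tested, Ercc1, a subunit of the nuclease that cuts beside the damage. Ercc1 fell by 0.65 ± 0.25 with vehicle (edgeR adjusted p 0.0331), while Ddb2 rose, and it did not pass with ISRIB (0.0697). Of 12 lipid transport genes regulated by liver X receptors, as Pltp is, 3 were tested and Apoe fell, by 1.15 ± 0.20 with vehicle (edgeR adjusted p 4.08e-05) and 0.77 ± 0.20 with ISRIB (0.0023).

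Among 13 genes of DNA degradation and sensing, listed for Dnase2a, 6 were tested and 3 rose with vehicle, while 2 rose and 1 fell with ISRIB. The cytosolic dNTPase Samhd1 had 0 to 10 counts in vehicle M0 and 33 to 59 in vehicle M1. With ISRIB its counts were 5 to 11 in M0 and 30 to 48 in M1. The DNA sensor Ifi204 had 0 to 2 counts in the M0 libraries of both treatments and 14 to 36 (vehicle) or 14 to 56 (ISRIB) in M1. The inflammasome sensor Aim2 had 0 to 2 counts in vehicle M0 and 10 to 28 in vehicle M1. Samhd1, Ifi204 and Aim2 passed the filter on low counts through M1, so their calls, which are all the rises counted here, are a description. The secreted nuclease Dnase1 fell with ISRIB, by 0.92 ± 0.27 (edgeR adjusted p 0.00621). Of 4 MAST kinases other than Mast1, Mast4 was tested and rose, by 1.61 ± 0.21 with vehicle (edgeR adjusted p 7.21e-07), opposite in direction to Mast1. Mast4 overlaps Cd180, a receptor-like protein of myeloid cells, on the opposite strand. None of 7 genes of the CARD scaffold complex of Card14 had enough counts to be tested, with at most 6 counts in a library for Bcl10 and at most 4 for Malt1. Of 17 genes of lysosomal acidification and the MiT-TFE factors 3 were tested, and with vehicle the proton pump subunit Atp6v1d rose by 1.66 ± 0.55 (edgeR adjusted p 0.0161). The subunit Atp6v1a, also called with vehicle, had 9 to 22 counts in vehicle M0 and 0 to 2 in vehicle M1. It passed the filter on low counts through M0, so its call is a description. Neither of these subunits passed with ISRIB, and both rested on low means of 17.0 and 5.92 counts.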

How the data were processed

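For all 12 libraries the authors deposited raw counts by gene symbol and, in a second file, log2 values. By the values themselves, a deposited log2 value is that of the count over a library factor, plus 1. The submitters' processing notes name FastQC, HTSeq, DESeq2 and mm10 without saying what each was used for; aligner, annotation and strand setting are not given in the sources used here. Groups and replicate numbers came from the sample titles.

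The deposited counts went unchanged into edgeR 4.0.16 (R 4.3.3). The filter filterByExpr (minimum count 10, minimum total 15) left 2356 genes holding 97.6% of counts. A mean per group was fitted to all 12 libraries after TMM scaling, without a replicate block, and 5 contrasts were tested with glmQLFTest and adjusted by Benjamini-Hochberg over all tested genes at 0.05. Exons of GENCODE M21 were intersected with bedtools 2.31.1, and 23986 of 24552 symbols were matched. The scripts were tested on simulated counts.

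Replicate numbers were checked for pairing: deviations of same-numbered libraries from their group means correlated by -0.0600 to 0.113 across genes, not above 0.1 in every pair, so the numbers were not taken as pairs. Low counts at many genes could hide pairing from this check. The column names of the groups run in sequence within each replicate number, and the labels do not say why. Alternatives were DESeq2 1.42.0 (its test and its size factors), limma 3.58.1 on the deposited log2 values, other filters on low counts, the replicate block, only the compared groups, and leaving out each library. The members and lists were chosen with earlier results of these data known. Of the lists as first written, 2 genes were taken out after the analysis and are not reported here. Named genes are all 10 members, up to 4 genes of each list past the threshold in a polarization contrast (by mean count, else the 2 with the highest mean count), and the 2 genes with the highest Pearson r to each member with a mean of at least 50 counts. Other genes named, Psap, Gusb, Ctsc, Lamp2, Arsa, Neurl2, Nr1h3, Slc26a11 and the partners of lysosomal genes, were taken for their place, rank or low counts after their values were seen.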

Additional observations from a re-analysis of the deposited data

Results flagged for a closer look

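Acp2 stood on opposite sides of its vehicle libraries with ISRIB in M0 and in M1. In M0 all 3 ISRIB libraries (43, 77 and 80 counts) lay below all 3 vehicle libraries (90, 91 and 112) in CPM, and in M1 all 3 ISRIB libraries (40, 42 and 33) lay above all 3 vehicle libraries (25, 28 and 31). ISRIB and vehicle libraries were apart in CPM for 11.3% of all tested genes in M0 and 11.6% in M1. The nearest M1 libraries of Acp2 were close, at 77.3 CPM with ISRIB and 74.5 with vehicle. The difference of the 2 log2 changes was 0.92 ± 0.41 SE, with an edgeR p of 0.0331, or 0.660 once adjusted by Benjamini-Hochberg over all genes, and so did not pass. Over the 18 alternatives run for it the value ranged from 0.71 to 1.05, lowest without the first ISRIB M0 library, and the adjusted p ranged from 0.561 to 1.0. The cause was not tested.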

How the results depend on the processing

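The 8 members called in vehicle polarization and the 7 called under ISRIB held in the alternatives run, leaving out each library included, except with a minimum mean of 50 counts, where Sgsh was no longer tested and 7 and 6 were called; 0 members were called for ISRIB or the interaction in any. Over all genes, that minimum gave 530 calls with vehicle and 523 with ISRIB, as fewer genes were tested. Leaving out each library gave 963 to 1109 and 937 to 1099 calls for polarization, 0 to 1 for ISRIB in M1 (1 without the second ISRIB M1 library), 0 to 6 for ISRIB in M0 (6 without the first and 2 without the second ISRIB M0 library) and 0 to 4 for the interaction (4 and 1 without the same libraries). Without a filter, ISRIB in M0 had 10 calls and the interaction 9. The replicate block gave 3 calls for the interaction, changed no call of a member, and gave 1047 and 1026 for polarization, 1027 and 1011 of them shared with the fit without it. Without a filter, the median log2 fold change with vehicle was 0.00 for cholesterol synthesis (14 genes), 0.00 for excision repair (19 genes) and -0.35 for MAST kinases (4 genes), where the sign turned; the cause was not tested beyond the larger number of genes. Depth limits Acp2, Ctsb, Sgsh and Dnase2a, which had few counts, and the unknown strand setting bears on every value.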
